A study of Penicillium oxalicum with 15 samples.

Results

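Strain EU2101 of the filamentous fungus Penicillium oxalicum was compared on 2 solid carbon sources, WB plus AV and WB alone, with 3 libraries each, so that 6 of the 15 libraries of the series enter the comparison. They were chosen by sample title. The cultures were solid-state fermentations of mycelium, kept static for 5 days at 28 °C, in which 10 g of dried, milled carbon source was wetted with 20 mL of mineral salt solution. All 6 cultures share the strain, which carries no labelled mutation, the salt solution, the temperature and the time. The carbon source is given as 10 g in both groups, so WB plus AV may hold less WB than WB alone. Effects of more AV and of less WB cannot be told apart here. The labels write only abbreviations, and AV in the titles stands as WA in the growth field. WB is read here as wheat bran and AV as Avicel, a purified microcrystalline cellulose, without support from the labels. A further 3 EU2101 libraries, on a carbon source labelled WR in the growth field and WB_RS in the titles, share the fit and are used for levels set beside the others. Nothing in the labels says whether replicates were separate cultures, so the p-values weigh differences against a spread that may be technical.

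Wheat bran offers a fungus starch, protein and hemicellulose along with cellulose, while Avicel adds cellulose almost alone. Filamentous ascomycetes such as Penicillium break cellulose down outside the cell with cellobiohydrolases, which work along the chain from its ends, endoglucanases, which cut within it, and β-glucosidases, which split the short sugars released. Soluble products of that breakdown are known to switch on cellulase genes in related fungi, and glucose is known to repress them. The deposited files name genes by identifier only, and none of the 9373 identifiers listed in the EU2101 libraries matched the gene table at hand, so that no function is given to any single gene below.

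The 6 libraries held 1782848 to 3152409 estimated counts (reads assigned to genes) and listed 8665 to 8932 genes each. WB replicate 1 stood apart from its group before any gene was tested. Across 9373 genes on the log2(FPKM + 1) scale, where FPKM is a fragment count scaled for gene length and sequencing depth, it correlated at r = 0.911 and 0.915 with WB replicates 2 and 3, which reached 0.965 with each other. Its correlations with WB plus AV replicates 1, 2 and 3 were higher, at 0.959, 0.948 and 0.946. Results are therefore given with and without this library.

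Between WB and WB plus AV 510 of the 8079 genes tested differed, 238 higher and 272 lower on WB plus AV. This is 6.31% of the tested genes in all, 2.95% higher and 3.37% lower. The test was edgeR's quasi-likelihood F-test with the replicate number as a pair and a Benjamini-Hochberg adjusted p below 0.05. Of the higher genes 171 rose at least 2-fold, 46 by at least 2 on the log2 scale and 20 by at least 3, against 176, 24 and 5 of the lower genes. The median log2 fold change was 1.30 among higher genes, -1.15 among lower genes and 0.01 over all genes tested. The balance between directions turned with the scaling. In edgeR 46.7% of the calls were higher with TMM scaling and 51.4% with median-ratio size factors, and in limma on log2(FPKM + 1) 42.8% were higher as deposited and 58.0% after median-ratio centring.

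The share of genes called rose with the level in the higher of the 2 groups. Of 139 genes with a mean of at least 1000 FPKM in the higher of the 2 groups, 26.6% were called, 19 higher and 18 lower. At 100 to 1000 FPKM 12.7% of 1826 genes were called, at 10 to 100 FPKM 4.19% of 5469 and under 10 FPKM 2.02% of 645. Lower levels also rest on fewer counts, and the part of depth in this gradient was not tested. A gene that changes can also enter a higher class through its own change, and the part of this was not tested either. Of the 100 most abundant genes on WB, 7 rose and 17 fell. Among the 100 most abundant on WB plus AV 17 had risen and 4 had fallen, and 71 genes belonged to both lists. Ranking by the WB level favours genes that fell, and ranking by the WB plus AV level favours genes that rose. The opposite balance of the lists is therefore no separate result. Genes at 1000 FPKM or more, placed by the higher of the 2 groups, were close to even, with 19 higher and 18 lower.

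**Figure D1:**
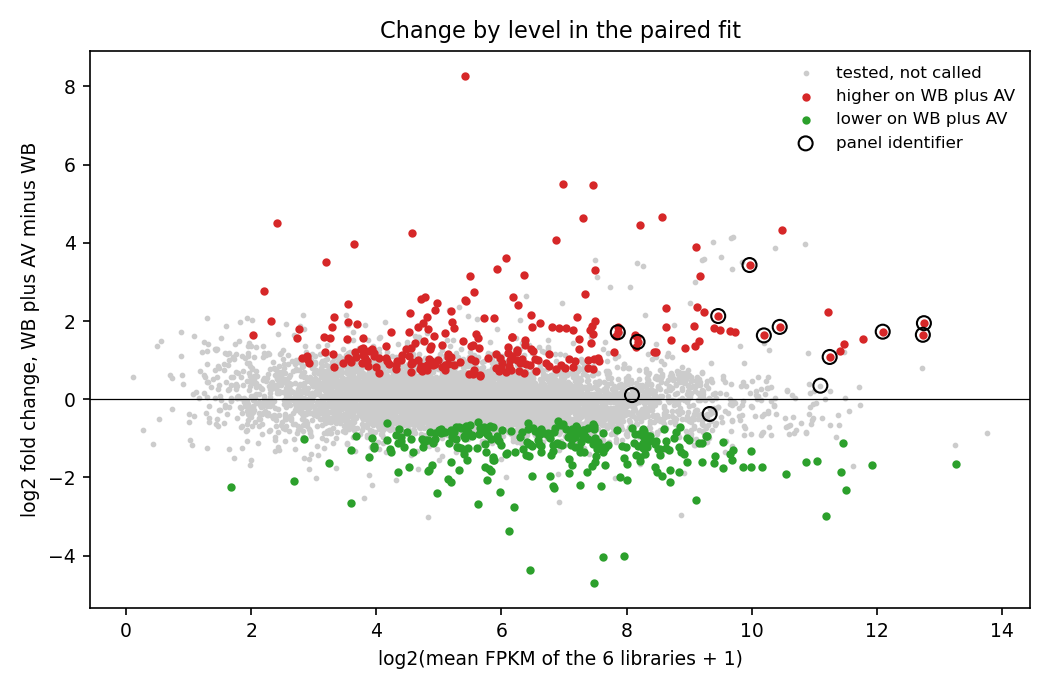
Each point is 1 of the 8079 tested genes, with its mean level over the 6 libraries on the x axis, as log2(FPKM + 1), and the log2 fold change of WB plus AV over WB on the y axis. The 238 higher and 272 lower genes are coloured and the 13 panel identifiers ringed, and the topmost point is POX09299, which had no count on WB, so that its fitted position depends on the prior count.

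The genes that rose took 4.56%, 2.62% and 2.48% of the summed FPKM in WB replicates 1, 2 and 3 and 12.6%, 10.1% and 9.83% in WB plus AV replicates 1, 2 and 3. The genes that fell took 8.86%, 14.9% and 14.8% on WB and 3.79%, 6.22% and 4.74% on WB plus AV. These shares describe genes picked by the same contrast and carry no test. In both sums WB replicate 1 was the WB library nearest to WB plus AV, and the groups did not overlap. On WR the same genes took 11.9 ± 1.92% and 4.58 ± 0.05% (SD, n = 3).

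How many genes were called depended on the pairing and on which libraries were kept. Without pairs 95 genes passed (1.18%), 55 higher (0.681%) and 40 lower (0.495%), and all of them were among the 510. Without WB replicate 1 the paired test called 2335 of 8168 genes (28.6%), 1191 higher (14.6%) and 1144 lower (14.0%), which include 99.8% of the 510. WB replicate 1 was set apart for its nearness to WB plus AV, so leaving it out favours calls. Neither the 28.6% as a size of the response nor the 99.8% as a check of the 510 can be read from it. Leaving out that library and the pairs gave 1769 genes (21.7%), among them 92.9% of the 510. With any other library left out the paired test called between 12 and 62 genes. Of the 510 genes 439 were called in only 1 of the 6 tests that leave out a library, and 8 were called in all 6. The paired test called no gene against the direction of any of its 3 pairs, where 23.8% of tested genes were higher and 22.5% lower in all 3. Groups did not overlap for 173 of the 238 higher genes and 233 of the 272 lower genes, against 5.79% and 9.95% of all tested genes.

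**Figure D2:**
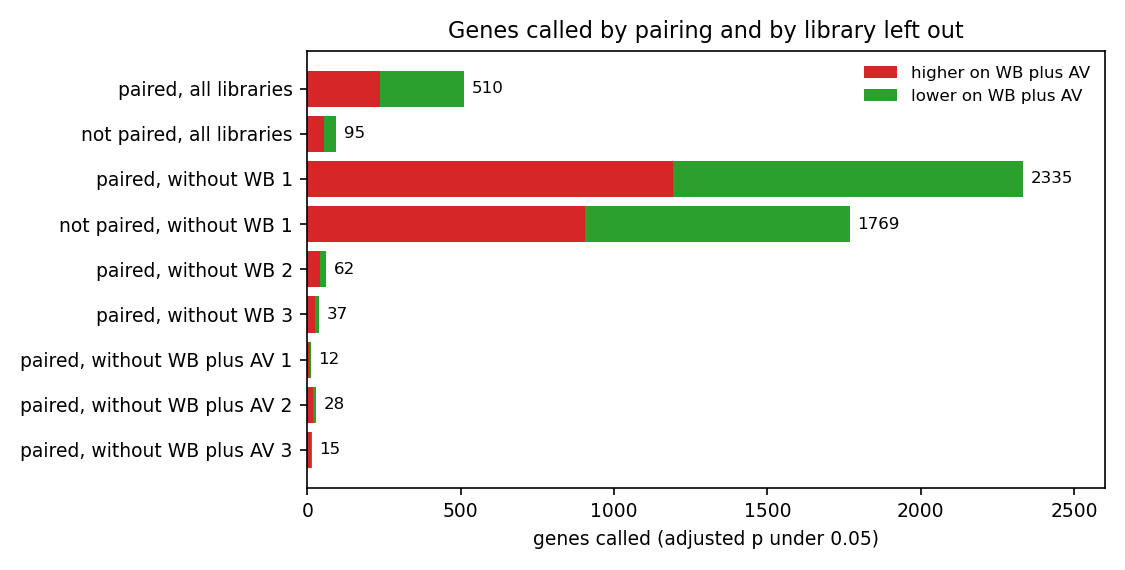
Bars show the number of genes called (adjusted p under 0.05 in edgeR) as higher (red) or lower (green) on WB plus AV, by whether replicate numbers were paired and which library was left out. The bar reaches 2335 genes without WB replicate 1 and no more than 62 without any other library, against 510 with all libraries.

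A panel of 13 identifiers stands in for the plant cell wall-degrading enzymes of this fungus. It was written from memory of quantitative PCR work on its cellulase and xylanase genes, and which enzyme each identifier encodes was not checked here. POX05571 and POX06983 were recalled apart from the rest and may not belong to the list, and both count among the risen members below. The list was chosen with earlier results of these data known, so it is not independent of them. Of the 13, 10 rose and none fell, or 76.9% against 2.95% of all tested genes. All 13 averaged at least 100 FPKM in the higher group, a range with more calls. Among tested genes at 1000 FPKM or more 19 of 139 rose, and at 100 to 1000 FPKM 78 of 1826, panel members included. The median log2 fold change over the panel was 1.65, against 0.01 over all genes tested. Without WB replicate 1 the same number rose, with a median of 1.78. Without pairs 2 rose, POX04786 and POX01896, and with any of the other 5 libraries left out no more than 1 passed, although the panel median stayed between 1.45 and 1.80. Panel identifiers took 1.64 ± 0.38% of the summed FPKM on WB (SD, n = 3). Their share was 4.91 ± 0.89% on WB plus AV and 6.63 ± 1.32% on WR.

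The 2 genes with the highest mean FPKM on WB plus AV belonged to this panel. POX04786 stood at 4123, 2621 and 1817 FPKM in WB replicates 1, 2 and 3 and at 12231, 12792 and 7687 FPKM in WB plus AV. All WB plus AV libraries lay above all WB libraries, and the gene moved from rank 20 by mean FPKM on WB to rank 1. The rise was larger than the spread between replicates (log2 change 1.95 ± 0.33 SE, adjusted p = 0.0160). POX01166 went from 5487, 2513 and 2100 FPKM to 13708, 9484 and 7497 FPKM and from rank 13 to rank 2 (log2 change 1.65 ± 0.31 SE, adjusted p = 0.0244). Again the groups did not overlap, with WB replicate 1 the highest WB library. POX05587 went from 1595, 2403 and 1910 FPKM to 6145, 8307 and 5793 FPKM and from rank 40 to rank 5 (log2 change 1.73 ± 0.34 SE, adjusted p = 0.0262). Here WB replicate 1 was the lowest WB library, not the highest.

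The steepest rise in the panel was that of POX06783, at 494, 90.8 and 52.1 FPKM on WB and 3008, 1329 and 1005 FPKM on WB plus AV. The groups did not overlap, and the gene rose 10.8-fold (log2 change 3.43 ± 0.45 SE, adjusted p = 0.00845). POX06147 stood at 628, 131 and 133 FPKM and rose to 1740, 696 and 898 FPKM (log2 change 2.13 ± 0.31 SE, adjusted p = 0.00965). WB replicate 1 lay just under the lowest WB plus AV library. POX01896, at 837, 485 and 488 FPKM on WB, reached 2612, 1974 and 1957 FPKM (log2 change 1.85 ± 0.25 SE, adjusted p = 0.00894). Its WB plus AV libraries were close together, and all of them exceeded WB replicate 1.

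The rises of another 4 members were smaller than that of POX06147. POX08484 stood at 939, 458 and 332 FPKM on WB and 2512, 1701 and 1067 FPKM on WB plus AV (log2 change 1.63 ± 0.28 SE, adjusted p = 0.0176), and POX05571 at 2108, 1280 and 1227 against 4269, 3161 and 2488 FPKM (log2 change 1.08 ± 0.27 SE, adjusted p = 0.0458). Neither pair of groups overlapped. POX06983, at 224, 69.0 and 54.4 against 494, 335 and 210 FPKM, and POX07535, at 287, 121 and 74.5 against 547, 423 and 274 FPKM, did overlap through WB replicate 1, which exceeded WB plus AV replicate 3. Both passed in the paired test, in which WB plus AV was higher in each of the 3 pairs. The log2 change was 1.71 ± 0.34 SE in POX06983 (adjusted p = 0.0258) and 1.47 ± 0.32 SE in POX07535 (adjusted p = 0.0334). POX05571 was lost under median-ratio size factors in edgeR (adjusted p = 0.0512), and after median-ratio centring of FPKM in limma both POX05571 and POX01166 missed the threshold (adjusted p = 0.0710 and 0.0531). Without WB replicate 1 each of the 10 members was called higher, by 1.05 in POX05571 to 4.06 in POX06783 on the log2 scale (adjusted p of at most 0.0133). Leaving out the WB library that is most like WB plus AV across genes favours calls, so these are no separate check.

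For 3 panel members no change was detected. POX00063 stood at 2119, 1904 and 1649 FPKM on WB and 2693, 2801 and 1943 FPKM on WB plus AV (log2 change 0.35 ± 0.29 SE, adjusted p = 0.486), and on WR at 5948 ± 1282 FPKM (SD, n = 3). POX06835 stood at 133, 353 and 292 against 184, 352 and 309 FPKM (log2 change 0.11 ± 0.28 SE, adjusted p = 0.850). In both groups replicate 1 was its lowest library, and without WB replicate 1 the change had the opposite sign, at -0.19 (adjusted p = 0.581). POX02740 stood at 427, 1015 and 678 against 419, 925 and 380 FPKM (log2 change -0.38 ± 0.41 SE, adjusted p = 0.60), with replicate 2 the highest in both groups. POX00063 and POX02740 did not pass without WB replicate 1 either (adjusted p = 0.596 and 0.146).

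**Figure D3:**
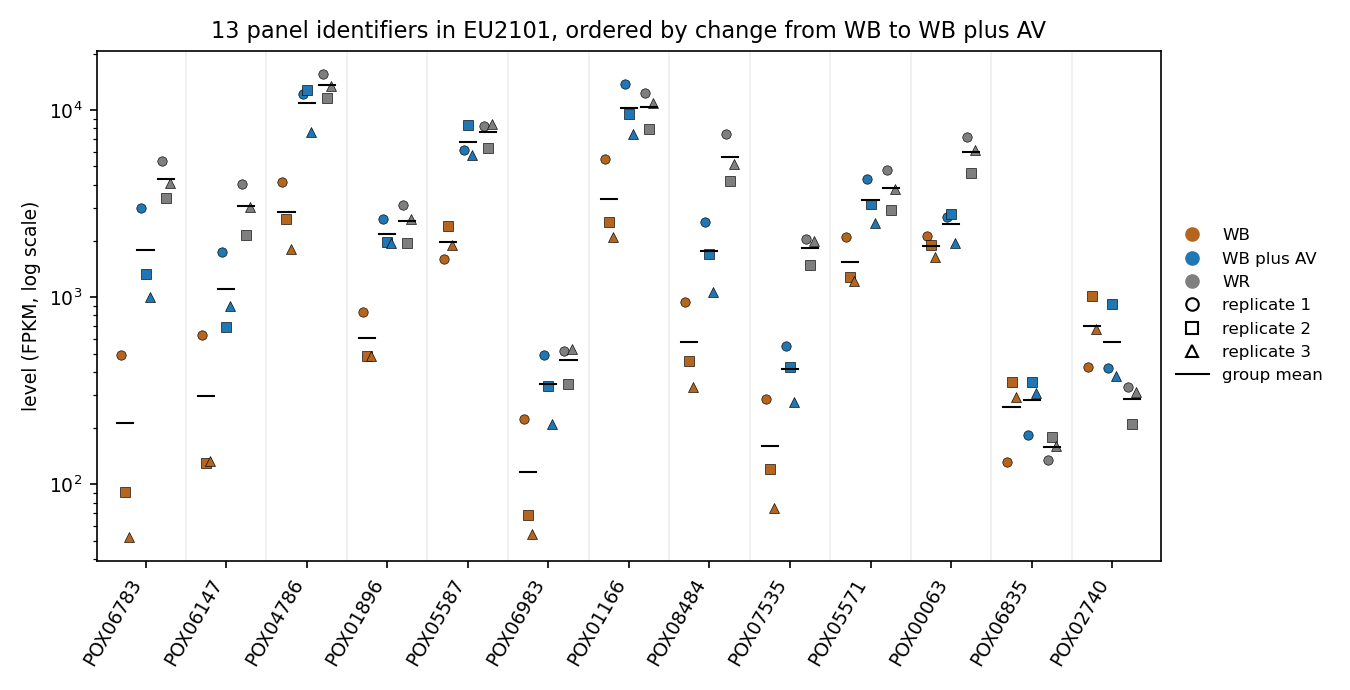
Levels of the 13 panel identifiers in FPKM on a log axis, 1 symbol per library and a bar at each group mean, with 3 groups per identifier, in order of the log2 fold change from WB to WB plus AV. From POX06783 to POX05571 the 10 members that rose have higher means on WB plus AV, and WB replicate 1 is the highest WB symbol in each of these 10 except POX05587.

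Outside the panel, the rule for naming genes gave 2 that rose and 2 that fell. POX09299 was listed in none of the WB libraries and had 61, 19 and 33 counts, or 119, 59.7 and 72.4 FPKM, on WB plus AV. Set against a floor of 3 counts per WB library it was at least 9.80-fold higher in counts scaled by the library total (adjusted p = 0.00955), and on WR it stood at 28.7 ± 15.1 FPKM. No other identifier had no count on WB and at least 3 in each WB plus AV library, and none showed the reverse. POX06079 gained the most FPKM, from 1988, 1905 and 1363 to 5399, 5953 and 4414 FPKM (log2 change 1.55 ± 0.31 SE, adjusted p = 0.0270). WB replicates 1 and 2 were close for this gene, and the mean on WR was 3934 ± 916 FPKM. The call on POX06079 was lost without pairs (adjusted p = 0.0519) and with any library other than WB replicate 1 left out (adjusted p from 0.107 to 0.182), and that on POX09299 without WB plus AV replicate 1 or 2 (adjusted p = 0.0557 and 0.0655).

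POX00805 fell most, from 292, 373 and 351 FPKM on WB to 4.15, 36.4 and 9.93 FPKM on WB plus AV (log2 change -4.69 ± 0.49 SE, adjusted p = 0.00425). WB replicate 1 stayed with its own group, and the gene was called in 5 of the 6 tests that leave out a library, the exception being the test without WB plus AV replicate 3 (adjusted p = 0.0573). POX00805 was named as the largest fall among called genes without overlap. The place of WB replicate 1 and the calls kept are therefore no separate results. POX09299, POX06079 and POX00805 all passed without WB replicate 1, with adjusted p of at most 0.00342. POX06753 lost the most FPKM. It was the second most abundant transcript on WB, at 8286, 20254 and 15390 FPKM, and stood at 3149, 8256 and 3555 FPKM on WB plus AV. The highest WB plus AV library was only just below WB replicate 1, and the fall passed narrowly (log2 change -1.66 ± 0.40 SE, adjusted p = 0.0452). The call was lost without pairs (adjusted p = 0.142), under median-ratio size factors in edgeR (adjusted p = 0.0507), in all 4 limma settings (adjusted p from 0.0514 to 0.0918) and with any library other than WB replicate 1 left out (adjusted p from 0.105 to 0.269). Without WB replicate 1 the log2 change was -1.96 (adjusted p = 0.000548).

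POX03016, the identifier in the name of a mutant strain of the series, did not pass. It stood at 188, 499 and 195 FPKM on WB and 109, 445 and 214 FPKM on WB plus AV (log2 change -0.30 ± 0.20 SE, adjusted p = 0.366). Replicate 2 was its highest library in both groups, and without WB replicate 1 the adjusted p was 0.436.

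A stretch of consecutive identifiers rose together. With all libraries kept, the longest run of adjacent numbers called in 1 direction was that of 5 genes from POX09357 to POX09361. POX09362 was not called (adjusted p = 0.735), at 108, 86.7 and 109 FPKM on WB and 109, 75.9 and 108 FPKM on WB plus AV, and the next 3, POX09363 to POX09365, rose again. In all 8 risen genes the groups did not overlap, and the log2 changes ran from 1.68 to 4.32, with standard errors of 0.21 to 0.87 and adjusted p from 0.00129 to 0.0270. The most abundant, POX09358, stood at 520, 48.7 and 31.9 FPKM on WB and 3147, 2136 and 2725 FPKM on WB plus AV, and had the log2 change of 4.32. POX09361 went from 239, 63.8 and 67.3 to 1063, 756 and 1278 FPKM, and POX09365 from 175, 30.1 and 33.5 to 1018, 633 and 1417 FPKM. WB replicate 1 was the highest WB library and WB plus AV replicate 2 the lowest of its group in each of the 8 genes. The genes inside the run were picked after their values were seen, identifiers are taken as neighbours by number alone, and no position on a chromosome is claimed.

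Levels of the stretch on WR lay below those on WB plus AV. POX09358 averaged 200 ± 277 FPKM on WB, 317 ± 133 on WR and 2669 ± 508 when AV was added (SD, n = 3). The 8 genes were higher on WB plus AV than on WR by 1.41 to 2.84 on the log2 scale (adjusted p from 0.00083 to 0.0469 in the same fit, in which 4.81% of tested genes were higher on WB plus AV), although they had been picked for high values in these WB plus AV libraries. All 8 were also higher than on WB without WB replicate 1, by 1.77 to 6.03. The edge of the stretch is less sharp in that test, in which the run held 8 genes, from POX09354 to POX09361. It thus also called the identifiers just before the stretch, among them POX09355 (log2 change 0.69, adjusted p = 0.0263) and POX09356 (log2 change 0.60, adjusted p = 0.0235). POX09355 was higher on WB plus AV than on WR too (log2 change 1.51, adjusted p = 0.00723). Without pairs 6 passed. With WB replicate 2, WB replicate 3 or WB plus AV replicate 2 left out 6, 5 and 4 passed, and without WB plus AV replicate 1 or 3 a single one, POX09364, which was chosen after its values were seen, did.

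**Figure D4:**
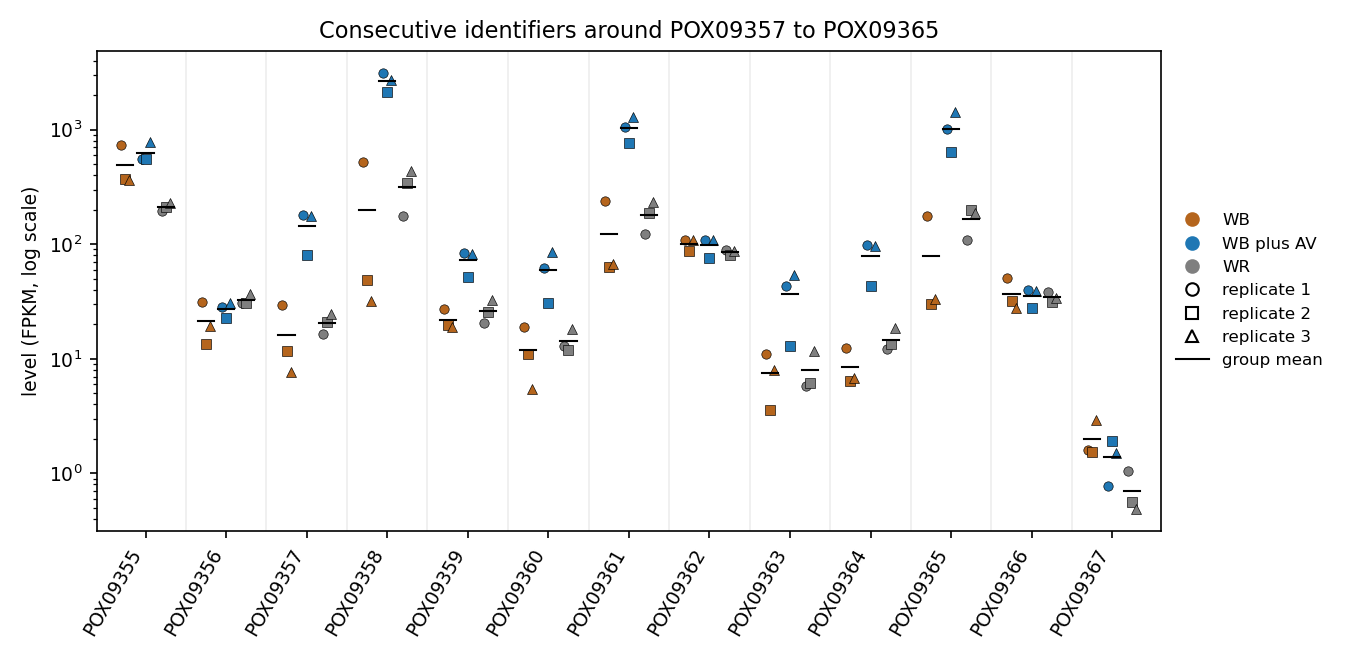
Levels in FPKM on a log axis for consecutive identifiers from POX09355 to POX09367, 1 symbol per library and a bar at each group mean. Between POX09357 and POX09365 all genes except POX09362 are higher on WB plus AV than on WB or WR, and with all libraries kept the identifiers on either side are not called between WB plus AV and WB, while without WB replicate 1 POX09355 and POX09356 are.

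The genes called without WB replicate 1 were chosen without its values, and the library was placed among them. It had been set apart because it lies near WB plus AV, so the placement describes that nearness and is no independent result. The genes were also chosen for a gap between WB plus AV and WB replicates 2 and 3, the same libraries it is placed against. In 1744 of these 2335 genes the library lay closer to the mean of WB plus AV, and in 591 to that of WB replicates 2 and 3. The latter is 25.3%, close to the 30.1% of all tested genes in which it was nearer to WB replicates 2 and 3. The 2 directions differed in this count. Among the 1191 genes higher on WB plus AV it lay on the WB plus AV side in 1064, and among the 1144 lower genes in 680. The library was thus nearer to WB replicates 2 and 3 in 10.7% of the higher genes, below the share over all tested genes. In the lower genes this was 40.6%, above that share. The share over all tested genes pools both directions and includes genes with hardly any gap between groups, so it is only a loose reference. On a scale where 0 is the mean of the other WB libraries and 1 the WB plus AV mean, the median position of WB replicate 1 was 1.05 in the higher and 0.61 in the lower genes. The same count for the other libraries rests on 12 to 62 genes, called with WB replicate 1 kept, and is not set against it.

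The panel and the stretch from POX09357 to POX09365 were among the genes in which WB replicate 1 stayed short of WB plus AV. Over the 10 panel members called without it, its median position was 0.60, from -0.26 in POX05587 to 0.77 in POX06983, and it was nearer to WB in 3. In the 8 genes of the stretch it lay between 0.25 and 0.61. Unlike the genes of the count above, the stretch was picked with WB replicate 1 kept. That choice favours genes in which this library lies away from WB plus AV, so these positions are no independent placement of it. Whether a library was exchanged was not tested.

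Longer runs appeared when WB replicate 1 was left out, and in the longest of them that library stood with WB plus AV. In that test 20 consecutive identifiers from POX01166 to POX01185 were all called higher, by 1.54 to 7.38 on the log2 scale (median 6.47, adjusted p of at most 0.0011), and the next longest run held 19, from POX05850 to POX05868. Over the 20 genes the median level was 584, 12 and 7.91 FPKM in WB replicates 1, 2 and 3 and 1148, 600 and 912 FPKM in WB plus AV replicates 1, 2 and 3. On WR it was 419, 959 and 826 FPKM, so that WB replicates 2 and 3 were low and the other 7 libraries high. WB replicate 1 exceeded the lowest WB plus AV library in 6 of the 20 genes, and its position ran from 0.60 to 1.10 with a median of 0.87.

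The run begins with the panel member POX01166, and its most abundant gene outside the panel is POX01176, at 1623, 27.4 and 18.6 FPKM on WB and 4190, 2137 and 3064 FPKM on WB plus AV. Whether POX01176 is called higher depends on WB replicate 1, with a log2 change of 7.01 without that library and of 3.98 ± 1.38 SE (adjusted p = 0.115) with it. With all libraries kept 2 of the 20 passed, and their median log2 change was 3.49. Genes of the run from POX05850 to POX05868 had medians of 67.4, 9.06 and 8.87 FPKM on WB and 73.1, 44.1 and 30.9 FPKM on WB plus AV, with WB replicate 1 at a median position of 1.30 and a single gene called with all libraries. These runs were picked after their values were seen.

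**Figure D5:**
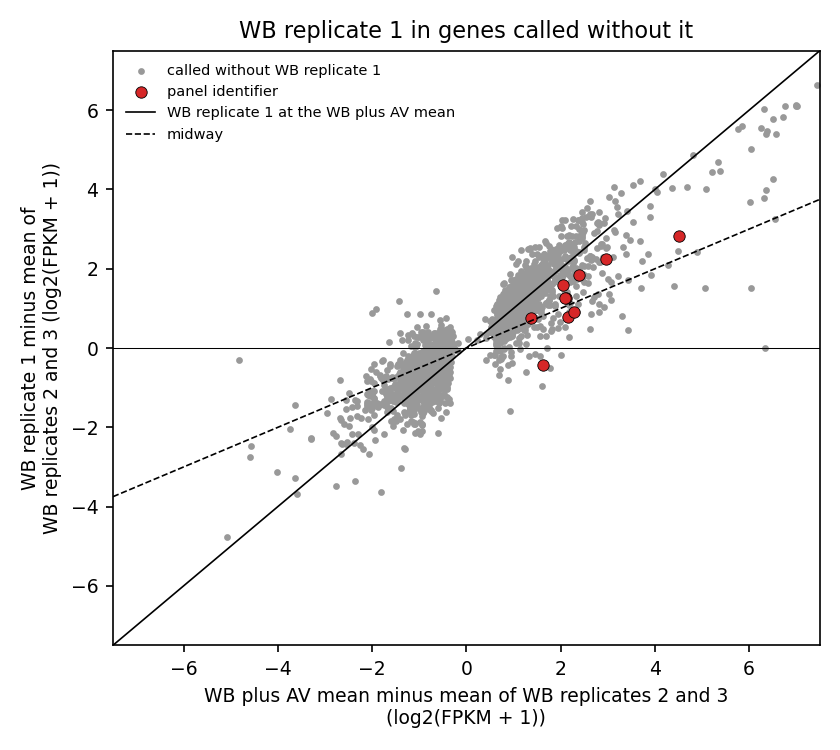
Each point is 1 of the 2335 genes called without WB replicate 1, with the WB plus AV mean minus the mean of WB replicates 2 and 3 on the x axis and WB replicate 1 minus the same mean on the y axis, both on the log2(FPKM + 1) scale. Points on the solid line have WB replicate 1 at the WB plus AV mean and points on the horizontal axis at the mean of the other WB libraries, and most higher genes lie near the solid line while the panel identifiers (red) scatter around the dashed midline.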

How the data were processed

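Each library of mycelium RNA has its own file, which per the file headers pairs every gene with an expected count and FPKM. The authors deposited these counts as estimates of reads per gene, which need not be whole (0.17 to 0.31% were not in the 9 EU2101 libraries). The FPKM values were scaled by the authors for gene length and depth. Unlisted genes were set to 0. The submitters' processing notes name RSEM 1.2.12, Bowtie2 2.1.0, BWA 0.7.10-r789 and DESeq2, without roles. The genome build is not given in the sources used here.

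Counts were rounded to whole numbers. edgeR 4.0.16 (R 4.3.3) was run with TMM scaling, its expression filter (minimum count 10) and the quasi-likelihood F-test, and p-values were adjusted by Benjamini-Hochberg over the 8079 genes tested, with a threshold of 0.05. Another 1294 of the 9373 identifiers had too few counts. Adjusted p-values are from this test except where limma 3.58.1 or DESeq2 1.42.0, the alternatives, is named. The 9 EU2101 libraries entered 1 fit with carbon source and replicate number as terms. A standard error is the log2 fold change over the square root of F. The 6 mutant libraries are not used here.

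Same-numbered WB and WB plus AV libraries deviated together from their group means (r = 0.57, 0.60 and 0.43 over 8079 genes), which met the rule for pairing of r over 0.1. The labels give no reason for the pairing. WB plus AV and WR libraries also met it (0.33, 0.44 and 0.23), WB and WR did not (0.08, 0.29 and 0.17). The fit nevertheless holds a shared replicate number effect for WB, WB plus AV and WR. These r come from the same counts that are tested, so they are no independent ground for pairing. All replicates differed by more than sampling noise (the smallest chi-square per degree of freedom between 2 of a group was 7.96, over genes with at least 20 counts).

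The comparison, the panel and the tests were chosen with earlier results of these data known. Named genes were the panel, POX03016, the ends of the longest runs of called consecutive identifiers and, outside the panel, called genes without overlap and with at least 10 FPKM in the higher group that had the largest log2 rise, log2 fall, gain and loss in FPKM.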

Additional observations from a re-analysis of the deposited data

How the results depend on the processing

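With the replicate number as a block 510 genes were called (238 higher, 272 lower) and 10 panel members rose. With no replicate block there were 95 (55 and 40) and 2, and with only the 6 WB and WB plus AV libraries in the fit 407 (198 and 209) and 10 with the block, but 3 (3 and 0) and 0 without it, where 419 higher and 538 lower genes had an unadjusted p under 0.05 and the 3 were POX04606, POX05007 and POX09364, named after their values were seen. Leaving out 1 library in turn gave 12 to 2335 genes, 8 to 1191 higher and 2 to 1144 lower, and 0 to 10 panel members. Without WB replicate 1 and without the block 1769 genes were called (907 and 862), with a panel median of 1.99. With both libraries numbered 1 left out, an alternative chosen after seeing the data, there were 2329 (1266 and 1063). DESeq2 called 831 genes (431 and 400), which include 95.5% of the 510. Median-ratio size factors in edgeR gave 477, no filter on low counts 587, and limma 418 on log2(FPKM + 1), 458 with a pseudocount of 5, 398 (231 and 167) after median-ratio centring and 317 (127 and 190) without a filter, with 8 to 10 panel members. The panel median lay between 1.45 and 1.99 under every alternative run. POX06835, which was not called, reversed to -0.19 and -0.34 without WB replicate 1 (with and without the block) and to -0.0546 without both libraries numbered 1, and reached 0.31 without WB replicate 2. Genes that differ by replicate number rose from 206 to 608 in DESeq2 and ran from 0 to 526 with 1 library left out. The cause of these shifts was not tested. At 0 counts on WB a rise is bounded only by the floor of 3 counts.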

Other observations

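The replicate number itself carried differences across the EU2101 cultures. In the same fit 206 of 8079 genes (2.55%) differed between numbers, 18 of them also called between WB plus AV and WB. Replicate 2 was highest in 179 of the 206 genes and replicate 1 lowest in 129. POX03016 was one of them (adjusted p = 0.00533), at 188, 499 and 195 FPKM in WB replicates 1, 2 and 3, 109, 445 and 214 on WB plus AV and 75.5, 241 and 98.3 on WR, with replicate 2 highest in each group. No panel member differed by number in edgeR, where POX06147 came nearest (adjusted p = 0.0717). Without WB plus AV replicate 2 no gene differed by number in edgeR at the adjusted threshold, while 1121 had an unadjusted p under 0.05, and DESeq2 with all libraries called 608 genes.

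With all libraries kept, shorter runs of consecutive identifiers also moved together. Among the 238 higher genes 39 stood in runs of at least 2 adjacent numbers, and among the 272 lower genes 40. Of 199 higher genes whose next number was tested, 11.6% had a neighbour that rose too, against 2.95% of all tested genes, and of 236 lower genes 9.32% had a neighbour that fell, against 3.37%. These shares are descriptions, and whether adjacent genes share reads was not tested. The longest falling run in that test, of 4 genes from POX03378 to POX03381, had log2 fold changes from -2.09 to -0.95 and median levels of 144 FPKM on WB, 50.5 with AV added and 26.3 on WR. The panel member POX06147 closed a run of 3 rising genes that starts at POX06145, with log2 fold changes from 2.13 to 2.55.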
